A study of Mus musculus with 10 samples.

Results

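Adipose progenitor marker genes were followed in visceral white adipose tissue (WAT) of Mof+/+ and Mof+/- mice. The 8 genes, Pdgfra, Pdgfrb, Dpp4, Pi16, Ly6a, Cd34, Dlk1 and F3, were found by symbol among the 47937 genes that each library lists, and each symbol matched a single gene identifier. Adipocytes are replaced and added from fibroblast-like progenitors that sit in the stroma and around vessels of fat. They are commonly recognised by the receptor PDGFRα and the surface antigens SCA-1 (Ly6a) and CD34. In current descriptions of mouse fat, DPP4+ PI16+ cells of the interstitial connective tissue are early progenitors, cells close to adipocyte commitment have lost these markers, and cells that carry F3 (CD142) can restrain adipocyte formation. None of the 8 is confined to progenitors. Pdgfrb is also a gene of pericytes and smooth muscle, and Cd34 and Ly6a are also genes of endothelium.

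Bulk mRNA-seq of whole tissue was performed on C57BL/6 mice, of which the Mof+/- animals were heterozygous for Mof (gene symbol Kat8), a histone acetyltransferase. Standard diet (SD) libraries came from mice aged 8 weeks (3 Mof+/+ and 3 Mof+/-), and high-fat diet (HFD) libraries from mice aged 27 weeks that had received HFD for 20 weeks (2 Mof+/+ and 2 Mof+/-). The ages and the time on HFD are those of the deposited design, and the article on the study gives a longer time on HFD. The study asked what Mof dosage and diet change in adipose tissue. Diet and age differ together and cannot be told apart, and the heterozygosity was not limited to a cell type. Values are CPM, a gene's share of all gene counts in its library, scaled so that the shares sum to 1000000, and means carry the s.d. over libraries. In bulk tissue, fewer cells of a type and less RNA per cell cannot be told apart.

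Several libraries stood apart, and these facts touch the results below. Totals ranged from 5531786 to 17171947 counts in 9 libraries and reached only 1044355 in HFD Mof+/- replicate 1, where 26.9% of counts were mitochondrial, a list of 16 skeletal muscle genes summed to 81588 CPM and 243 of the 4424 genes with at least 20 CPM in every other library had no count. HFD Mof+/- replicate 2 had 1966 CPM of the muscle list, against 50.5 to 133 in the SD and HFD Mof+/+ libraries. SD Mof+/+ replicate 3 had 629 CPM of a lymphocyte list (at most 96.3 elsewhere), and SD Mof+/+ replicate 2 had 1274 CPM of a neural list (at most 164 elsewhere). Kat8 was at 21.5, 21.4 and 20.4 CPM in SD Mof+/+ and 12.2, 18.8 and 11.5 CPM in SD Mof+/-. On HFD it was at 18.1 and 19.2 CPM in Mof+/+ and 20.1 and 10.5 CPM in Mof+/-. The value of HFD Mof+/- replicate 1 rests on 21 counts (exact 95% interval 12.4 to 30.7 CPM) and could not be set apart from its controls. In the edgeR fits described below, the log2 fold change of Kat8 between the genotypes was -0.22 on SD and 0.06 on HFD, and neither passed. The female-specific transcript Xist was present in the 3 SD Mof+/- libraries (46.1 to 139 CPM) and at 0 counts in the other 7, and 4 Y-linked genes (Ddx3y, Eif2s3y, Kdm5d, Uty) had 0 counts in the same 3, whereas Ddx3y was at 49.7 to 100 CPM in the other 7. The study's methods give male mice. Sex therefore cannot be told apart from genotype between the SD groups, nor from diet and age between the Mof+/- groups, and it also enters the interaction. Headings written in the files exchange replicate 3 between the SD genotypes, which these sex-linked genes do not follow, and the sample labels were used.

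The plot of the members by library gives every value. Compared per kilobase of exon, Ly6a was the highest of the 8 genes in all 4 groups, with group means of 181 to 224 CPM per kilobase, and Dlk1 was the lowest, with 0.0479 to 0.826 CPM per kilobase. Ly6a and Dlk1 kept these places in every group, and the other 6 genes did not, of which Pi16 and Pdgfrb moved by more than 1 place. Pi16 had rank 5 in both Mof+/+ groups and rank 2 in SD Mof+/- (34.6 ± 16.3 CPM per kilobase, s.d., n = 3), and Pdgfrb had rank 3 in both Mof+/+ groups and in HFD Mof+/- but rank 7 in SD Mof+/- (6.36 ± 1.94 CPM per kilobase, s.d., n = 3).

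**Figure D1:**
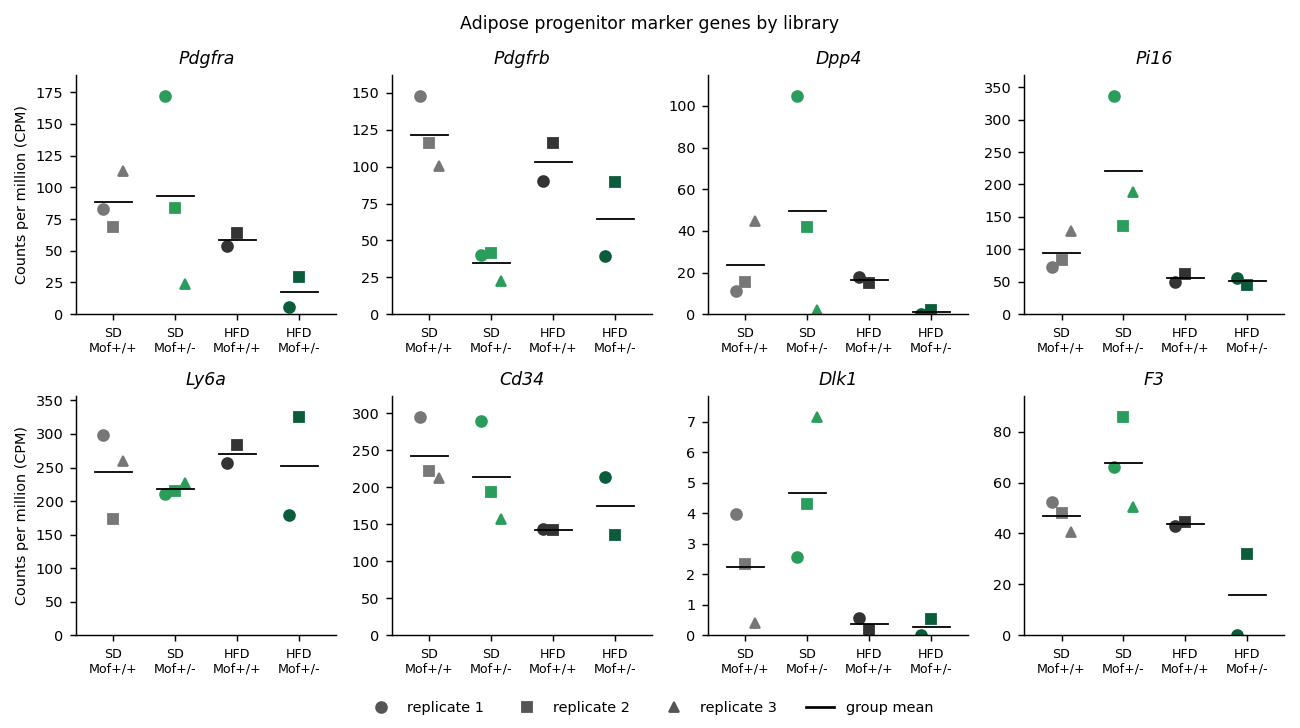
CPM (linear axis from 0) of the 8 progenitor marker genes in each library; columns are the 4 groups, symbols mark the replicate number and horizontal lines are group means. Pdgfrb was lower and Pi16 higher in each SD Mof+/- library than in each SD Mof+/+ library, and Dpp4, Dlk1 and F3 had no count in HFD Mof+/- replicate 1.

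Pdgfra encodes the receptor tyrosine kinase used to sort adipose progenitors (GRCm38 chromosome 5, 75152292 to 75198215, plus strand). It was at 82.8, 68.8 and 113 CPM in SD Mof+/+ and at 172, 84.0 and 23.8 CPM in SD Mof+/-. The SD Mof+/- libraries thus spanned the whole range of the controls and beyond it on both sides. In HFD Mof+/+ it was at 53.7 and 63.7 CPM, and in HFD Mof+/- at 5.75 CPM (6 counts) and 29.6 CPM. Both HFD Mof+/- values lay below both HFD Mof+/+ values, and both HFD Mof+/+ values lay below all 3 SD Mof+/+ values.

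Dpp4, a surface peptidase of early interstitial progenitors (chromosome 2, 62330073 to 62412231, minus strand), followed a similar order over the libraries. It was at 11.0, 15.3 and 44.8 CPM in SD Mof+/+, and at 105, 41.8 and 2.08 CPM in SD Mof+/-. HFD Mof+/+ libraries had 17.8 and 14.8 CPM, and HFD Mof+/- libraries had 0 CPM and 2.17 CPM (12 counts). Replicate 3 of SD Mof+/- was thus as low as the HFD Mof+/- libraries. The 0 in HFD Mof+/- replicate 1 was taken to allow up to 2.87 CPM, the level of 3 counts at its depth, and the exact 95% interval (Clopper-Pearson, 2-sided) ends at 3.53 CPM.

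Pi16, a secreted peptidase inhibitor that marks the same interstitial progenitors (chromosome 17, 29317680 to 29330593, plus strand), was at 72.7, 83.5 and 128 CPM in SD Mof+/+. In SD Mof+/- it was at 336, 136 and 188 CPM. All 3 SD Mof+/- values lay above all 3 control values, and replicate 3, the lowest for Pdgfra and Dpp4, was not the lowest for Pi16. On HFD, Pi16 was at 49.0 and 61.8 CPM in Mof+/+ and at 56.5 and 44.7 CPM in Mof+/-, and the genotypes overlapped.

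The 250 bases upstream of the RefSeq start (GRCm38.p6) are shown for Dpp4 and Pdgfra, which moved together over the libraries, and for Pi16, which is grouped with Dpp4 by cell type but differed from it in SD Mof+/- replicate 3. RefSeq promoters were found for 6 of the 8 genes, without Ly6a and Pdgfrb. Capitals mark promoter motifs, searched on both strands, and no motif overlapped another. The TATA box, searched with the letters TATAAA, occurs in 13.0% of 27025 mouse promoters of the same length. The CCAAT box, searched with the letters of its name, occurs in 34.5%, and the GC box, searched with the letters GGGCGG, in 32.9%.
Pdgfra, chr5:75152001-75152250, plus strand: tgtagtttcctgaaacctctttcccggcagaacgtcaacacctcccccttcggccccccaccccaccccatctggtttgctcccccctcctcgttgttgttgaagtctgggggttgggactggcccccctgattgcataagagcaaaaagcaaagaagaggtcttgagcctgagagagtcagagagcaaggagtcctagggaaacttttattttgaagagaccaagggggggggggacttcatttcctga
Dpp4, chr2:62412232-62412481, minus strand: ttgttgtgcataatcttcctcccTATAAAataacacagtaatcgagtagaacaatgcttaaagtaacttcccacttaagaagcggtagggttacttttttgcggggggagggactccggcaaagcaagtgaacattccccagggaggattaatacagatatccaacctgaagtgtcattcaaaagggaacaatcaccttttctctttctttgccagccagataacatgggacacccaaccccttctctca
Pi16, chr17:29318632-29318881, plus strand: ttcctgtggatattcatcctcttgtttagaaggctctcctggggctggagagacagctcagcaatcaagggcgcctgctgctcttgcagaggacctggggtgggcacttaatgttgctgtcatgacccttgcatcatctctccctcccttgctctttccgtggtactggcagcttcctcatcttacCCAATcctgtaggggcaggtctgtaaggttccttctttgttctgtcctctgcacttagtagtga
The Dpp4 window held 1 match to the TATA letters, close to the end of the window farthest from the start. The Pi16 window held 1 match to the CCAAT letters, and the Pdgfra window none of the 3 motifs. Whether these matches act in transcription was not tested. G and C made up 54.4%, 43.6% and 52.4% of the Pdgfra, Dpp4 and Pi16 windows, against a median of 52.0% over all promoters. The Pi16 window lies inside the annotated gene span, because the RefSeq transcript starts downstream of the longest annotated one.

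Pdgfrb encodes the second PDGF receptor of stromal and mural cells (chromosome 18, 61045150 to 61085061, plus strand). It was at 148, 116 and 101 CPM in SD Mof+/+ and at 40.4, 41.5 and 22.6 CPM in SD Mof+/-. Each SD Mof+/- library was below each control. On HFD it was at 90.5 and 116 CPM in Mof+/+ and at 39.3 and 89.5 CPM in Mof+/-, of which the first lay well below both controls and the second just below the lower one.

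Ly6a encodes SCA-1 (chromosome 15, 74994877 to 74998031, minus strand). Its level was 298, 174 and 260 CPM in SD Mof+/+, 210, 215 and 228 CPM in SD Mof+/-, 257 and 283 CPM in HFD Mof+/+, and 179 and 325 CPM in HFD Mof+/-. All groups overlapped except that the HFD Mof+/+ pair lay above the SD Mof+/- libraries. Ly6a has close paralogs, so its assignment of reads is uncertain, and the paralog Ly6c1 was at 108 to 390 CPM over the 10 libraries. Cd34, the sialomucin of progenitors and vessels (chromosome 1, 194938819 to 194961279, plus strand), was at 295, 222 and 212 CPM in SD Mof+/+ and at 290, 193 and 158 CPM in SD Mof+/-. HFD Mof+/+ libraries had 144 and 142 CPM, below each SD Mof+/+ library, and HFD Mof+/- libraries had 214 and 136 CPM. The antisense gene Gm16897 shares 148 exon bases with Cd34 and had 55 counts in all 10 libraries, and the library kit did not mark strand.

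F3 encodes tissue factor (chromosome 3, 121723537 to 121735048, plus strand). It was at 52.2, 47.9 and 40.4 CPM in SD Mof+/+ and at 66.3, 85.6 and 50.6 CPM in SD Mof+/-, where the lowest value fell within the control range. It was at 42.9 and 44.4 CPM in HFD Mof+/+, and at 0 and 32.0 CPM in HFD Mof+/-. The limits for the 0 are those given for Dpp4, and of 1507 genes with a median of 30 to 60 CPM in the other 9 libraries, 156 (10.35%) were at 0 in HFD Mof+/- replicate 1. Dlk1, which encodes the preadipocyte factor Pref-1 (chromosome 12, 109452823 to 109463336, plus strand), was scarce in all 10 libraries. It had 31, 17 and 3 counts in SD Mof+/+, 44, 45 and 48 counts in SD Mof+/-, 9 and 3 counts in HFD Mof+/+, and 0 and 3 counts in HFD Mof+/-. In CPM the SD genotypes overlapped, with 3.96, 2.33 and 0.387 in Mof+/+ and 2.56, 4.32 and 7.14 in Mof+/-. With at most 9 counts in any HFD library, Dlk1 did not pass the filter on low counts between the genotypes on HFD, and its fitted values between the diets in Mof+/- mice and in the interaction are not bounds.

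In the order of group means, few neighbours differed beyond their spread. Pi16 ran from SD Mof+/- (220 ± 104 CPM) over SD Mof+/+ (94.7 ± 29.3) and HFD Mof+/+ (55.4 ± 9.0) to HFD Mof+/- (50.6 ± 8.37), and the s.d. ranges of the 2 Mof+/+ groups did not meet, while its other neighbours did. For Pdgfra, Dpp4 and F3 the order was SD Mof+/-, SD Mof+/+, HFD Mof+/+ and HFD Mof+/-, and only the last step, between the HFD groups, exceeded the s.d. ranges (58.7 ± 7.08 against 17.7 ± 16.9 CPM for Pdgfra). The 3 steps for Pdgfrb, Ly6a, Cd34 and Dlk1 were all within the s.d. ranges. Pdgfrb had another order of groups, with SD Mof+/+ highest (122 ± 23.9 CPM) and SD Mof+/- lowest (34.9 ± 10.6 CPM).

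Between the genotypes on SD, Pi16 was higher and Pdgfrb lower in Mof+/- WAT, and the other 6 genes did not pass the test. Pdgfrb fell by 1.46 on the log2 scale (SE 0.29, adjusted p = 0.0361), and Pi16 rose by 1.57 (SE 0.37, adjusted p = 0.0475, edgeR's quasi-likelihood test with Benjamini-Hochberg adjustment over all 13864 genes tested). Of all genes tested, 5.24% passed, 3.33% as higher and 1.91% as lower. Pi16 and Pdgfrb were also the 2 of 8 members whose libraries did not overlap between genotypes, where 40.3% of all genes tested did not. F3 had a log2 fold change of 0.87 (SE 0.26, adjusted p = 0.0802 in edgeR) and passed in DESeq2 (adjusted p = 0.0402), which called 2198 genes in all against 727 in edgeR. In edgeR, 3 of the 8 members were below an unadjusted p of 0.05, as were 25.7% of all genes. Dpp4 and Pdgfra, with log2 fold changes of 1.39 (SE 0.99) and 0.41 (SE 0.55), had the widest spread between SD Mof+/- libraries relative to their group means. In CPM the widest spread was that of Pi16. Ly6a and Cd34 were at 0.20 (SE 0.26) and 0.16 (SE 0.28), and both were below 0 without TMM normalization (-0.16 and -0.18). The median log2 fold change of the 8 members was 0.64, beside -0.07 over all genes tested.

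Both calls were close to the threshold. The Pi16 call was lost whichever library was left out (adjusted p from 0.0585 to 0.182, log2 fold change from 1.18 to 1.85), and the Pdgfrb call was lost without any of the SD Mof+/+ replicates 1, 2 and 3 (adjusted p = 0.161, 0.111 and 0.0821) or SD Mof+/- replicate 2 (adjusted p = 0.106), while its log2 fold change stayed between -1.59 and -1.25. Neither passed in a single fit of 10 libraries (adjusted p = 0.0603 for Pdgfrb and 0.0590 for Pi16), and Pi16 did not pass with plain totals in place of TMM normalization (log2 fold change 1.22, adjusted p = 0.0808). With the genotypes of the third SD libraries exchanged as in the file headings, Pdgfrb was at -0.57 and Pi16 at 0.77, and neither passed.

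**Figure D2:**
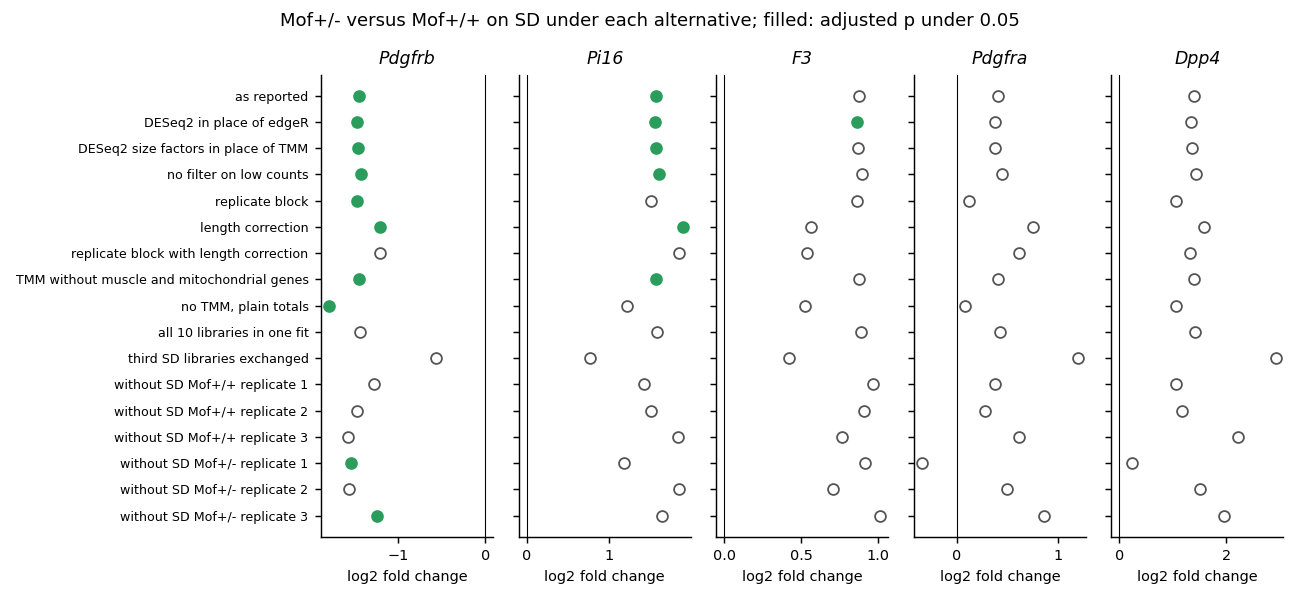
log2 fold change of 5 progenitor marker genes between Mof+/- and Mof+/+ on SD (horizontal axes) as reported and under each alternative (rows); filled green circles have an adjusted p under 0.05. Pdgfrb stayed below 0 and Pi16 above 0 in every row, Pi16 lost its call in each row that left out a library and in several others, Pdgfrb in some of both kinds, and Pdgfra changed sign without SD Mof+/- replicate 1.

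Other genes of the PDGF pathway and of progenitor classes were read beside the members. Of the 4 PDGF ligands, Pdgfb, a ligand of PDGFRβ released mainly by endothelium, fell by 2.01 on the log2 scale in SD Mof+/- (SE 0.42, adjusted p = 0.0394). It was at 80.6, 64.4 and 40.7 CPM in SD Mof+/+ and at 8.62, 9.50 and 17.7 CPM in SD Mof+/-, with no overlap. Pdgfa (0.16), Pdgfc (0.21) and Pdgfd (-0.35) had small log2 fold changes that did not pass. Of 14 further interstitial progenitor genes, 3 rose and none fell: Igfbp6, an IGF-binding protein, by 3.02 (SE 0.33, adjusted p = 0.00673), Sema3c, a secreted semaphorin, by 1.33 (SE 0.29, adjusted p = 0.0429), and Mfap5, a microfibril protein, by 1.13 (SE 0.25, adjusted p = 0.0418). Igfbp6 was at 61.2, 83.7 and 129 CPM in SD Mof+/+ and at 633, 488 and 605 CPM in SD Mof+/-. The 14 genes had a median log2 fold change of 0.97, beside -0.07 over all genes.

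Of 4 further genes used in progenitor sorts (Cd24a, Itgb1, Ptprc, Pecam1), the endothelial Pecam1 fell by 2.38 (SE 0.38, adjusted p = 0.0268). Of 14 committed preadipocyte genes, Lpl (2.13, SE 0.37) and Fabp4 (1.79, SE 0.37) rose and none fell, and both are also expressed by adipocytes, of whose 12 listed markers 4 rose. None of 10 genes listed for F3 (CD142) regulatory stromal cells passed, although 7 had an unadjusted p under 0.05, 4 higher and 3 lower, and the list was not counted in DESeq2. Of 18 general fibroblast genes, 4 rose and none fell, led by Fbln1 (2.33, SE 0.21), a matrix glycoprotein, and Clec3b (2.05, SE 0.26). The members can also be read per 1000 counts of these 18 genes within a library. On that scale Pdgfrb was at 7.10, 5.62 and 4.94 in SD Mof+/+ and at 1.51, 1.67 and 1.16 in SD Mof+/-, and Pi16 at 3.49, 4.04 and 6.28 and at 12.6, 5.49 and 9.69.

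Markers of other cells moved with the same contrast. All 12 endothelial genes had a log2 fold change below 0 and 8 of them fell, with a summed level of 1647 to 3951 CPM in SD Mof+/+ and 433 to 569 CPM in SD Mof+/-. Of 10 mural genes, 3 fell, the pericyte genes Notch3 (-2.21), Abcc9 (-1.96) and Rgs5 (-1.79), and none rose. Rgs5 was at 498, 393 and 457 CPM in SD Mof+/+ and at 110, 94.6 and 98.7 CPM in SD Mof+/-. The smooth muscle genes of the list had log2 fold changes above 0 that did not pass, 4.09 for Tagln (SE 1.05, adjusted p = 0.0566), 3.06 for Acta2 (SE 0.87, adjusted p = 0.0723) and 2.06 for Myh11 (SE 0.79, adjusted p = 0.146). Tagln was at 168, 69.6 and 103 CPM in SD Mof+/+ and at 80.3, 1337 and 2927 CPM in SD Mof+/-, so that replicates 2 and 3 stood apart from replicate 1. The summed level of the 10 mural genes was 1333 to 1739 CPM in SD Mof+/+ and 793 to 5886 CPM in SD Mof+/-. Of 10 mesothelial genes, 4 rose (Upk1b, Upk3b, Msln, Wt1) and none fell, with sums of 24.1 to 127 CPM in SD Mof+/+ and 209 to 404 CPM in SD Mof+/-. In SD Mof+/+, Upk1b, Lrrn4, Krt8, Muc16 and Bnc1 were at 0 counts in at least 1 library. Of 10 macrophage genes, the complement genes C1qa (1.40), C1qc (1.26) and C1qb (1.21) rose and none fell, while the summed levels overlapped (1273 to 2142 CPM in SD Mof+/+ and 1975 to 2261 CPM in SD Mof+/-). Of 6 neural genes tested, 3 fell and none rose, and of 9 lymphocyte genes tested none passed in edgeR, although 2 had an unadjusted p under 0.05 as lower. The part of these cell types in the Pdgfrb and Pi16 differences was not tested.

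**Figure D3:**
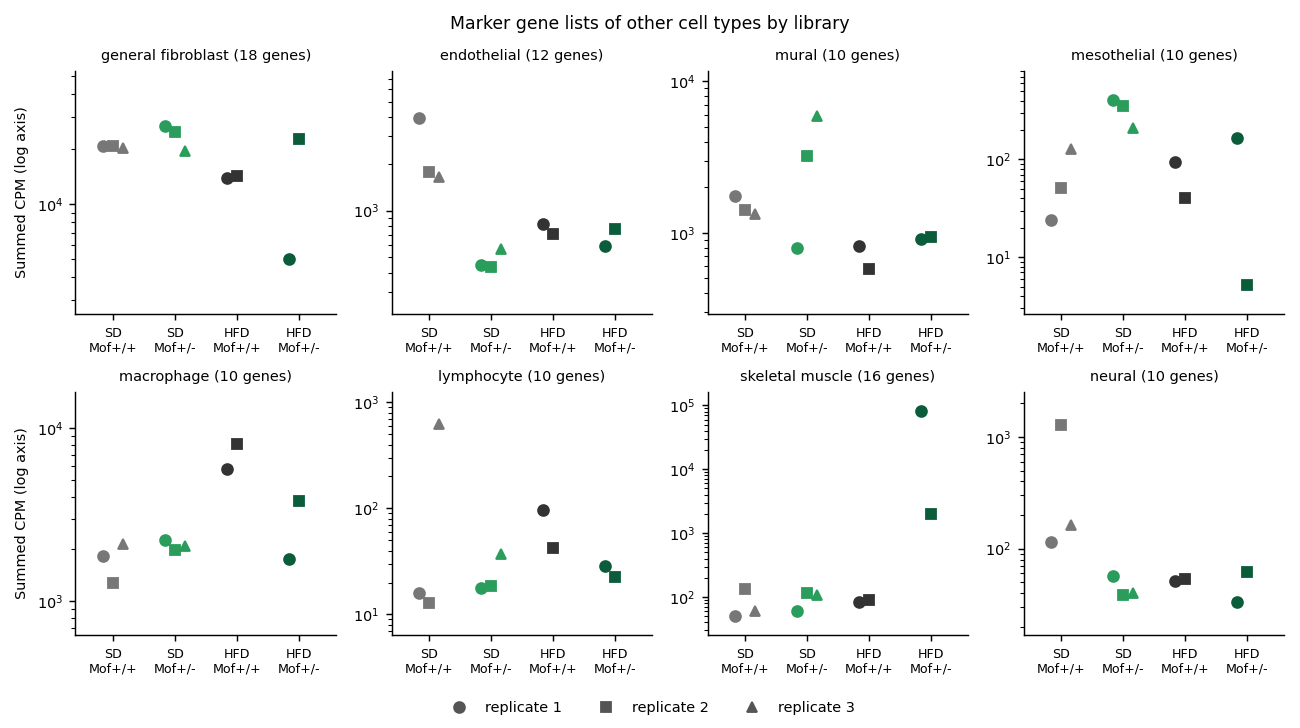
Summed CPM (log axis) of 8 marker gene lists in each library, by group; symbols mark the replicate number. Endothelial sums were lower (433 to 569 against 1647 to 3951 CPM) and mesothelial sums higher (209 to 404 against 24.1 to 127 CPM) in SD Mof+/- than in SD Mof+/+, and skeletal muscle reached 81588 CPM in HFD Mof+/- replicate 1.

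Between the genotypes on HFD, both Mof+/- libraries had less Pdgfra, Pdgfrb, Dpp4 and F3 than both Mof+/+ libraries, but none of the 7 members tested passed in edgeR, none had an unadjusted p under 0.05, and DESeq2 called none. Over all 14120 genes, 0% were called by edgeR, 12.3% had an unadjusted p under 0.05, and 54.4% had libraries that did not overlap, beside 4 of the 7 members. Dpp4 was at -3.37 on the log2 scale (SE 1.54, adjusted p = 0.527), Pdgfra at -1.42 (SE 0.75, adjusted p = 0.604), F3 at -1.16 (SE 1.49) and Pdgfrb at -0.38 (SE 0.43). Pi16 (0.21, SE 0.40), Ly6a (0.20, SE 0.34) and Cd34 (0.65, SE 0.40) had log2 fold changes above 0, and without TMM normalization those of Pi16 and Ly6a were -0.14 and -0.10. The median of the 7 members was -0.38, beside -0.24 over all genes. Dlk1 did not pass the filter on low counts.

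The count on HFD depended on which Mof+/- library was used. Without replicate 1, Pdgfra (-0.82, adjusted p = 0.0323) and Dpp4 (-2.74, adjusted p = 0.000647) passed in a fit with a single Mof+/- library, which was assumed to vary like the controls, and 4326 genes in all were called. With the other library left out instead, Pdgfra, Pdgfrb, Dpp4 and F3 passed as lower and Cd34 as higher, with 7551 genes called. Skeletal muscle sums were 82.4 and 90.3 CPM in HFD Mof+/+ and 81588 and 1966 CPM in HFD Mof+/-, and general fibroblast sums were 13901 and 14160 CPM and 5034 and 22557 CPM. Per 1000 general fibroblast counts, Pdgfra was at 3.86 and 4.50 in HFD Mof+/+ and at 1.14 and 1.31 in HFD Mof+/-. On that scale Dpp4 (1.28 and 1.05 against 0 and 0.0962) and F3 (3.09 and 3.14 against 0 and 1.42) were also lower in both Mof+/- libraries. Pdgfrb (6.51 and 8.18 against 7.80 and 3.97) overlapped between the genotypes, and Cd34 (10.33 and 10.03 against 42.4 and 6.02) lay above both controls in replicate 1 and below both in replicate 2. Macrophage sums were lower without overlap (5798 and 8073 CPM in HFD Mof+/+, 1762 and 3805 CPM in HFD Mof+/-). Mural sums were higher without overlap (817 and 581 against 909 and 932 CPM), and no gene of either list passed in edgeR. The part of these cells and of the muscle content was not tested. None of the PDGF ligands, of the progenitor classes or of the fibroblast genes passed in edgeR with both libraries.

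In Mof+/+ mice, HFD libraries had less Pdgfra, Pi16 and Cd34 than SD libraries without overlap, yet none of the 8 members passed in edgeR. Of all 14939 genes, 9.75% passed, 6.02% as higher and 3.73% as lower on HFD, 28.4% had an unadjusted p under 0.05 and 49.1% did not overlap, so that the 3 of 8 members without overlap were below the background share. Cd34 was the single member with an unadjusted p under 0.05 (log2 fold change -0.64, SE 0.21, adjusted p = 0.0975), and DESeq2 called it (adjusted p = 0.0213) and no other member. Over all genes, DESeq2 called 2967, against 1457 in edgeR. Pi16 was at -0.64 (SE 0.28, adjusted p = 0.178) and Pdgfra at -0.46 (SE 0.24, adjusted p = 0.263). Pdgfrb (-0.11, SE 0.23) and F3 (0.02, SE 0.20) had the smallest log2 fold changes, and F3 was at -0.10 without TMM normalization. The summed CPM of the general fibroblast list (20358 to 20809 on SD and 13901 to 14160 on HFD) and of the adipocyte list (23760 to 32425 and 14361 to 18686) was lower on HFD without overlap. Single genes weigh heavily in both sums. Gsn was at 11974, 13687 and 12771 CPM on SD and at 6655 and 6517 CPM on HFD. Cfd was at 9901, 12413 and 12380 CPM on SD and at 624 and 533 CPM on HFD. By gene, 13 of 18 fibroblast genes had a log2 fold change above 0, and 9 of 12 adipocyte genes were below 0. Per 1000 general fibroblast counts, Pdgfra (3.32 to 5.55 on SD and 3.86 to 4.50 on HFD) and Pi16 (3.49 to 6.28 and 3.53 to 4.36) overlapped between the diets, and Cd34 was at 14.2, 10.7 and 10.4 on SD and at 10.33 and 10.03 on HFD, which lay just below. Gsn, itself lower on HFD, makes up much of this divisor, so the ratios do not give levels against the rest of the list. The median of the 8 members was -0.43, beside -0.04 over all genes. These 5 libraries all had Y-linked transcripts and no count of Xist, so this comparison is free of the difference in sex-linked genes, but not of that in age.

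Among the other genes in Mof+/+ mice, the ligand Pdgfa rose by 1.22 on the log2 scale on HFD (SE 0.25, adjusted p = 0.0298), from 16.5, 14.1 and 17.3 CPM to 32.6 and 35.5 CPM. Of the 14 interstitial progenitor genes, Mfap5 rose (1.38, SE 0.27) and none fell. Of 14 preadipocyte genes, Lpl rose (1.23, SE 0.21) and Agt, which encodes angiotensinogen, fell by 3.21 (SE 0.41). Of the 10 F3 (CD142) stromal genes, the cholesterol transporter gene Abcg1 rose (1.86, SE 0.35). Abcg1 is also expressed by macrophages, of whose 10 listed genes 8 rose, with sums of 1273 to 2142 CPM on SD and 5798 to 8073 CPM on HFD. Of the general fibroblast genes, Prrx1 (1.84) and Serpinf1 (1.12) rose and Gsn fell by 0.84. Of the endothelial genes 4 of 12 fell, and of the mural genes 5 of 10. The part of these cells in the member values was not tested.

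**Figure D4:**
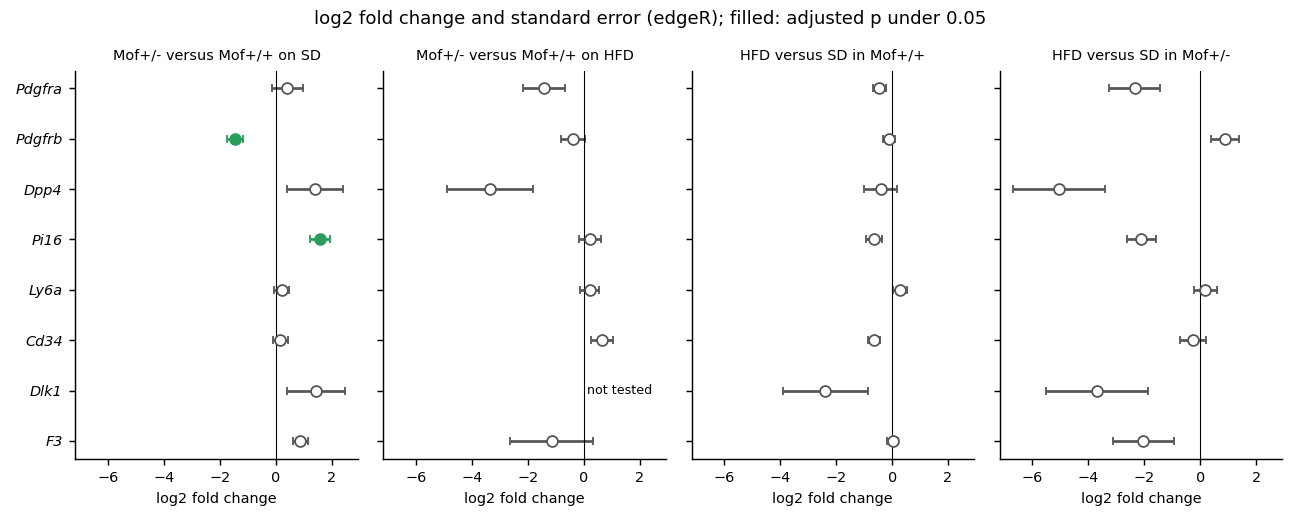
log2 fold change (circles) with its standard error (bars) of the 8 progenitor marker genes in the 4 comparisons, on a shared axis; filled green circles have an adjusted p under 0.05 in edgeR. Pdgfrb (-1.46) and Pi16 (1.57) on SD were the only values past the threshold, and Dlk1 was not tested between the genotypes on HFD.

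In Mof+/- mice, no member passed between HFD and SD in edgeR, while Pdgfra, Dpp4 and Pi16 had an unadjusted p under 0.05 and DESeq2 called Dpp4 and Pi16. DESeq2 called 470 genes in all. In edgeR 0% of all 13610 genes were called, 8.57% had an unadjusted p under 0.05 and 27.6% did not overlap, beside 3 of 8 members (Pi16, Dlk1 and F3, all lower on HFD). Pi16 was at -2.10 (SE 0.53, adjusted p = 0.325), Dpp4 at -5.06 (SE 1.65, adjusted p = 0.473) and Pdgfra at -2.34 (SE 0.91, adjusted p = 0.534). Pdgfrb was at 0.88 (SE 0.50, adjusted p = 0.670). Ly6a (0.18, SE 0.41) and Cd34 (-0.25, SE 0.46) had the smallest values, and Cd34 was above 0 after a correction for transcript length (0.53). The median of the 8 members was -2.07 (-2.04, the value of F3, without the scarce Dlk1), beside -0.26 over all genes. Sex-linked genes differed between these groups as well as diet and age.

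The genotype by diet interaction asks whether the genotype difference itself differed between the diets, and no member passed it. The log2 interaction was -4.62 for Dpp4 (SE 1.74, adjusted p = 0.330) and -1.48 for Pi16 (SE 0.58, adjusted p = 0.344), the 2 members with an unadjusted p under 0.05 in edgeR, and DESeq2 called none and had 3 such members. Pdgfra was at -1.86 (SE 0.96), F3 at -2.01 (SE 1.07) and Pdgfrb at 0.99 (SE 0.54). Of all 15897 genes 0.0881% passed, with 12.4% at an unadjusted p under 0.05. Among the fibroblast genes Fbln1 passed (-4.06, SE 0.48, adjusted p = 0.00669), at 56.5, 58.6 and 59.4 CPM in SD Mof+/+, 248, 229 and 207 CPM in SD Mof+/-, 56.4 and 55.6 CPM in HFD Mof+/+, and 19.2 and 10.8 CPM in HFD Mof+/-. The genotype differences of Pi16 on the 2 diets are thus not shown to differ.

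Within libraries, the members did not move as a block. Counts of Pdgfra over those of Pdgfrb were 0.561, 0.591 and 1.12 in SD Mof+/+, 4.25, 2.02 and 1.05 in SD Mof+/-, 0.593 and 0.550 in HFD Mof+/+, and 0.146 and 0.331 in HFD Mof+/-. The ratio thus exceeded 1 in SD Mof+/- and in a single control, SD Mof+/+ replicate 3. Dpp4 and Pi16 together over Pdgfra were 1.01, 1.44 and 1.53 in SD Mof+/+, 2.57, 2.12 and 7.99 in SD Mof+/-, 1.25 and 1.20 in HFD Mof+/+, and 9.83 and 1.58 in HFD Mof+/-, where the 9.83 rests on 6 counts of Pdgfra. Pi16 had 2.86 to 6.62 times the counts of Dpp4 in SD Mof+/+, but 90.3 times in SD Mof+/- replicate 3 and 20.6 times in HFD Mof+/- replicate 2.

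Across the 10 libraries, log2 CPM of Pdgfra and Dpp4 had a Pearson r of 0.98 (0.95 without HFD Mof+/- replicate 1, and 0.94 without SD Mof+/- replicate 3 as well). Pdgfrb and Pi16 had an r of -0.74 (-0.82 and -0.81). Dpp4 and Pi16, which mark the same progenitors, had an r of 0.40, which was 0.87 without those 2 libraries. These are descriptions over 4 groups and carry no test. The points share the groups, the depth and a relation of the libraries to transcript length. Over genes, Spearman's rho between the length of a gene's exons and its level in a library relative to the other libraries was 0.346 to 0.398 in SD Mof+/+, 0.133, -0.178 and -0.430 in SD Mof+/-, 0.0936 and -0.00570 in HFD Mof+/+, and -0.111 and -0.253 in HFD Mof+/-. The library of the lowest rho, SD Mof+/- replicate 3, was the SD library with the least Pdgfra and Dpp4. Pdgfra has the longest exons of the 8 genes (10.024 kilobases), and those of Dpp4 and Pi16 span 6.319 and 6.364 kilobases. The part of length in these patterns was not tested beyond a correction in the fit. With that correction, the log2 fold change of Pdgfra was 0.75 between the genotypes on SD, -0.86 between them on HFD and -0.17 between the diets in Mof+/+ mice, and none passed.

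**Figure D5:**
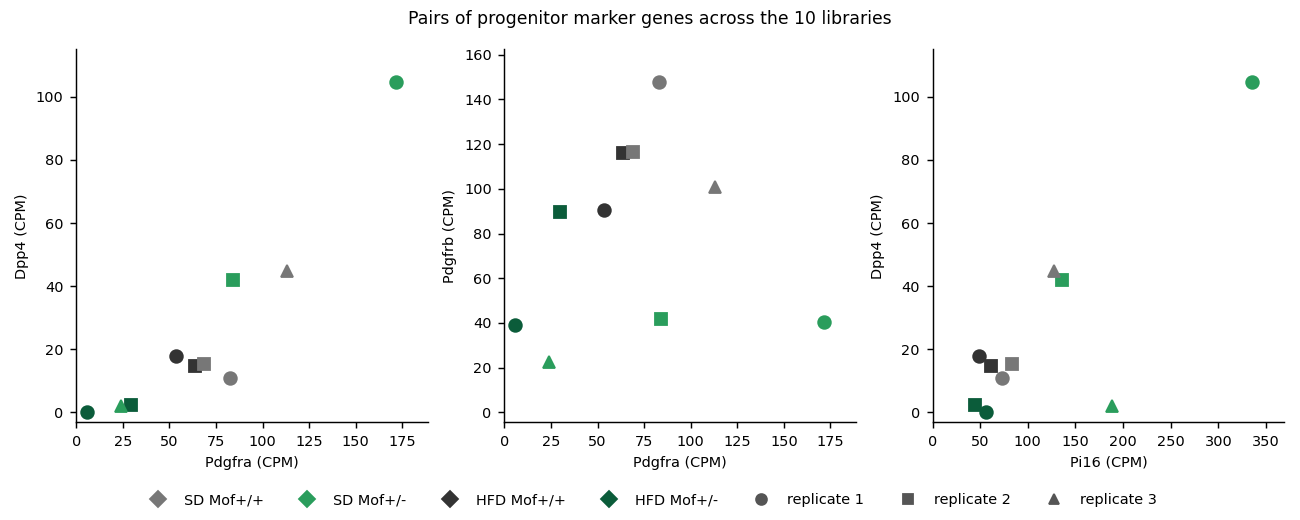
CPM of pairs of progenitor marker genes, each point a library, coloured by group and shaped by replicate number: Dpp4 against Pdgfra (left), Pdgfrb against Pdgfra (middle) and Dpp4 against Pi16 (right). Dpp4 rose with Pdgfra over the libraries (r = 0.98 on the log2 scale), and SD Mof+/- replicate 3 lay apart on the right, with 188 CPM of Pi16 and 2.08 CPM of Dpp4.

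The genes with the pattern most like each member were taken from 11308 genes by Pearson's r of log2 CPM over the 10 libraries. For Pdgfra they were Tpr (0.99), Dpp4 (0.98) and Slu7 (0.97), and for Dpp4 they were Pdgfra, Nono (0.97) and Tpr (0.97). Tpr encodes a nuclear pore protein, and Slu7 and Nono encode RNA-binding proteins of splicing and the nucleus, and none of the 3 is a progenitor marker. For Pdgfrb they were Tnc (0.97), which encodes the matrix protein tenascin C, Cdkn2b (0.97) and Myo10 (0.96). Pi16 was followed by Nbl1 (0.94), a BMP antagonist gene, Jun (0.93) and Hoxc10 (0.92). Ly6a had Cygb (0.91), Narfl (0.88) and Clec10a (0.88), and Cd34 had Zbtb4 (0.95), Ccdc8 (0.94) and Rhobtb1 (0.93). Dlk1 had Nit2 (0.96), C2 (0.93) and Rbms2 (0.93). For F3, Zfp655, Crbn and Cpne8 were at 0.998, 0.998 and 0.997, but at 0.924, 0.924 and 0.886 without HFD Mof+/- replicate 1.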

How the data were processed

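Bulk mRNA-seq of visceral WAT was analysed in 10 libraries, grouped by their sample labels. The authors used snakePipes with STAR for alignment (GRCm38) and featureCounts (Subread 1.5.0-p1) for counting, and deposited unnormalized counts of each gene. The annotation release is not given in the sources used here. Symbols, coordinates and exon lengths were taken from GENCODE M21 for GRCm38 after dropping identifier versions (47224 of 47937 genes matched).

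CPM used the total of counts on genes (1044355 to 17171947 per library). The floor was 3 counts, and 95% intervals (exact Clopper-Pearson) cover counting error only. Groups were compared in pairs with edgeR 4.0.16 (TMM, filterByExpr, quasi-likelihood test, Benjamini-Hochberg over all genes tested, threshold 0.05), and the interaction over all 10 libraries. SE is the log2 fold change divided by the square root of F. Computation used R 4.3.3, limma 3.58.1, DESeq2 1.42.0, Python 3.11.15, pandas 2.3.3, scipy 1.17.1 and matplotlib 3.10.9. The procedure was tested on simulated data.

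The named genes were the 8 members, Kat8, the PDGF ligands, sex-linked genes, up to 4 genes past the threshold per list and comparison with the largest change, and the 3 genes most like each member among those with a mean of at least 50 counts (prior count 1 on the log scale). Members and the 18 gene lists, from general knowledge, were chosen with earlier results of these data known. Alternatives were DESeq2, its size factors, no filter on low counts, the replicate number as a block, a correction for exon length, both, TMM without muscle and mitochondrial genes, a single fit, the exchanged headings and each library left out. Plain totals and the single fit less HFD Mof+/- replicate 1 were added after seeing the data. Libraries of a group are biological replicates per the labels.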

Additional observations from a re-analysis of the deposited data

How the results depend on the processing

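The count of members called on SD, 2 as reported, was 1 with the replicate block (Pdgfrb), 0 with the replicate block and length correction, 1 with plain totals (Pdgfrb), 0 in a single fit of 10 libraries, 0 with the third SD libraries exchanged, 0 to 1 with a library left out, 3 in DESeq2 (F3 added) and 2 otherwise. On HFD it was 0 as reported and 0 to 5 with a library left out. In Mof+/+ mice it was 0, and 1 in DESeq2 (Cd34). In Mof+/- mice it was 0, but 2 in DESeq2, 3 with no filter, 4 with the replicate block (Pdgfra, Dpp4, Pi16, F3), 1 with block and length correction (Dpp4), 1 in the single fit (Pi16) and 0 to 1 with a library left out. In the interaction it was 0, 1 with no filter (Dpp4) and 0 to 1 with a library left out. The causes were not tested. Same-numbered libraries had correlations of deviations between -0.08 and 0.05, which show no sign of pairing by number. They cannot exclude it, as deviations in a group of 2 libraries mirror each other.

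Calls over all genes on SD were 727 as reported, 2198 in DESeq2, 1840 with no filter, 428 with the block, 379 with length correction, 111 with both, 194 in the single fit, 0 with exchanged headings and 17 to 1026 with a library left out. On HFD they were 0, 198 in DESeq2, 200 with the block, 115 with block and length correction and 92 to 7551 with a library left out. In Mof+/+ mice they were 1457, 2967 in DESeq2, 142 in the single fit, 0 with exchanged headings and 64 to 2230 with a library left out. In Mof+/- mice they were 0, 470 in DESeq2, 429 with no filter, 245 with the block, 146 with block and length correction, 189 in the single fit and 0 to 2122 with a library left out. In the interaction they were 14, 505 in DESeq2, 380 with no filter, 0 with exchanged headings and 4 to 3164 with a library left out. Plain totals lower the log2 fold change by 0.36 on SD, 0.33 on HFD and 0.12 in Mof+/+ mice against TMM.

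Signs of uncalled members reversed as follows on the log2 scale. On SD, Ly6a was -0.62 with length correction, -0.61 with block and length correction, -0.16 with plain totals and -0.011 with exchanged headings, Cd34 -0.18 with plain totals, and Dlk1 -0.85 with exchanged headings. On HFD, Pdgfrb was 0.24 with length correction and 0.25 with block and length correction, Pi16 -0.14 with plain totals and -0.12 in the single fit less HFD Mof+/- replicate 1, and Ly6a -0.10 with plain totals. In Mof+/+ mice, Pdgfra was 0.047 with block and length correction and 0.051 with exchanged headings, Pdgfrb 0.18 with exchanged headings, Dpp4 0.43 with the block, 0.57 with block and length correction and 0.85 with exchanged headings, Ly6a -0.19 with length correction and -0.15 with both, and F3 -0.085 with the block, -0.20 with length correction, -0.32 with both, -0.10 with plain totals and -0.25 with exchanged headings. In Mof+/- mice, Cd34 was 0.53 with length correction and 0.28 with block and length correction. In the interaction, Ly6a was 0.013 in DESeq2, 0.010 with its size factors, 0.85 with length correction, 0.85 with both, 0.067 with plain totals and 0.11 with exchanged headings, and Dlk1 0.93 with exchanged headings. With a library left out, the ranges that crossed 0 were -0.35 to 0.86 for Pdgfra and -0.081 to 0.34 for Cd34 on SD, -0.14 to 0.42 for Pi16 and -0.20 to 0.43 for Ly6a on HFD, -0.29 to 0.084 for Pdgfrb, -0.75 to 0.42 for Dpp4 and -0.088 to 0.11 for F3 in Mof+/+ mice, -0.76 to 0.11 for Cd34 and -0.18 to 0.45 for Ly6a in Mof+/- mice, and -0.077 to 0.74 for Cd34 and -0.47 to 0.23 for Ly6a in the interaction. Depth limits HFD Mof+/- replicate 1, where 3 counts are 2.87 CPM and where 10.35% of genes with a median of 30 to 60 CPM elsewhere also had no count.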
